A study of Saccharomyces cerevisiae with 18 samples.

Results

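The 7 genes followed here are named for pheromone-regulated membrane (PRM) proteins of budding yeast: *PRM2*, *PRM4*, *PRM6*, *PRM7*, *PRM8*, *PRM9* and *PRM10*. They were chosen by name, as 7 of the 7126 genes listed in the deposited tables, and all 7 were found. The dose at which each first rose, the size of its rise and the level at which it stopped rising were the questions asked of them.

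The libraries came from MATa cells of strain yAA95, a derivative of SEY6210a, 60 min after addition of synthetic α-pheromone in SD medium with glucose at 30 °C. All libraries share one genotype, in which *BAR1*, *MFα1*, *MFα2* and *ARG4* are deleted, an sfGFP reporter under the *FUS1* promoter is integrated at *ura3*, and *kss1*, per the study's methods, carries loss-of-function mutations, so that signalling runs through the MAP kinase Fus3 alone. The doses of experiment 1 were 0, 1, 5, 10, 15, 20, 50, 100 and 500 nM, those of experiment 2 were 0, 0.05, 0.25, 1, 5, 10, 20, 50 and 500 nM, and each dose had a single library per experiment, mock treated in the case of 0 nM. Doses given in both experiments therefore had 2 libraries, and 0.05, 0.25, 15 and 100 nM had 1. The 18 libraries held 4869999 to 16660000 mapped reads (median 11455000), as recovered from the deposited values, with the smallest at 500 nM of experiment 1. Of the defining markers of the opposite mating type, *MFα1* and *MFα2*, which are deleted, did not exceed 0.271 RPKM in any library, while *STE3* lay between 1.17 and 4.20 RPKM and *SAG1* between 6.04 and 24.0 RPKM. The summed level of these 4 genes ranged from 10.2 to 25.4 RPKM at 20 nM and above and from 8.88 to 10.2 RPKM at 0.25 nM and under, and its part in the results was not tested. The MATa receptor gene *STE2* was at 452 RPKM or more in every library, and *BAR1*, which is deleted, at 0.288 RPKM or less.

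In MATa cells, α-pheromone binds the receptor Ste2 and, through a G protein and a MAP kinase cascade, activates the transcription factor Ste12, which binds pheromone response elements with the core TGAAACA upstream of its targets. Many of these targets act at the cell surface or in the fusion of mating cells, and the PRM genes were named as membrane protein genes that respond to pheromone. The genes described here are of unlike kinds. *PRM6*, also called *KCH2*, encodes a potassium importer that takes part in calcium influx during the response. *PRM8* and *PRM9* belong to the DUP240 family of membrane proteins and have a motif bound by COPII coat proteins. *PRM2*, *PRM4*, *PRM7* and *PRM10* encode membrane proteins whose functions are less well defined.

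The 300 bases before the start codons of the 3 members that hold the core of the response element or its shorter form TGAAAC there are shown because they differ in this from the same windows of the other 2 genes that rose. The sequences are from RefSeq assembly R64, which is the sacCer3 build named in the submitters' processing notes, on the minus strand, on which all 3 genes lie, and are written from the far end up to the start codon. Capitals mark TGAAAC, or GTTTCA where it lies on the other strand.
*PRM6* upstream, chrXIII:181076-181375, minus strand: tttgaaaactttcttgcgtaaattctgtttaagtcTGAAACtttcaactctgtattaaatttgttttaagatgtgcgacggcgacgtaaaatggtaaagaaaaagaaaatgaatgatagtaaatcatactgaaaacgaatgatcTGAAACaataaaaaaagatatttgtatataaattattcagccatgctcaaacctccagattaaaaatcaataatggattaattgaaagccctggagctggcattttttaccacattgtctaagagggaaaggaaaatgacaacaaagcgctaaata
*PRM2* upstream, chrIX:285000-285299, minus strand: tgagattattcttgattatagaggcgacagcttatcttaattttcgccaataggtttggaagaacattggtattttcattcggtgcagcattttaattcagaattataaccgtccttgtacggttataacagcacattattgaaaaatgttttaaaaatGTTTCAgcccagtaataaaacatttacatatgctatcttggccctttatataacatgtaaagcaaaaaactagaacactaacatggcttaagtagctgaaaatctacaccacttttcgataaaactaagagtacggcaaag
*PRM4* upstream, chrXVI:256768-257067, minus strand: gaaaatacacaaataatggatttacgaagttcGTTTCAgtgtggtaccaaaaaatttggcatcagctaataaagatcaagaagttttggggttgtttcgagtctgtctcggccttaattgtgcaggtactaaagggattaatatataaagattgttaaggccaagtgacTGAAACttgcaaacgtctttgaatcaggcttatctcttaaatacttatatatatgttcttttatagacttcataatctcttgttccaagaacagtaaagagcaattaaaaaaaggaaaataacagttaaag

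The full core named above and the shorter core in capitals, which every full core contains, were searched on both strands. *PRM6* had 1 full core, 156 to 150 bases before its start codon, and 2 short cores in all. *PRM2* had 1 full core, 142 to 136 bases before the start codon, on the other strand. *PRM4* had 2 short cores, one on each strand, and no full core. Neither was found in the same window of *PRM7*, *PRM8*, *PRM9* or *PRM10*. The full core was in 14 and the short core in 19 of the windows of the 22 other mating genes that were listed for comparison, against 7.2% and 19.4% of 6001 windows of protein-coding genes. In windows of 600 bases, *PRM8* and *PRM9* had 1 full core each, *PRM10* had 2 short cores and *PRM7* had neither, where 14.6% of all genes held the full and 36.5% the short core. TGACTCA, the core of sites bound by the amino acid starvation regulator Gcn4, was in none of the 7 windows of 300 bases and in 2.62% of all. A match is a description of the letters and not a binding site.

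Of the 7 genes, *PRM2*, *PRM4*, *PRM6*, *PRM8* and *PRM10* rose with dose, *PRM7* was lower in pheromone than in the mock-treated libraries, and *PRM9* was near the limit of detection throughout. In RPKM, that is reads scaled to gene length and to the mapped reads of the library, the summed level of the 7 genes was between 969 and 2352 at 20 nM and above and between 66.3 and 81.4 at 0.25 nM and under. The libraries are averages over a culture, so that more responding cells and more RNA per cell cannot be told apart.

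**Figure D1:**
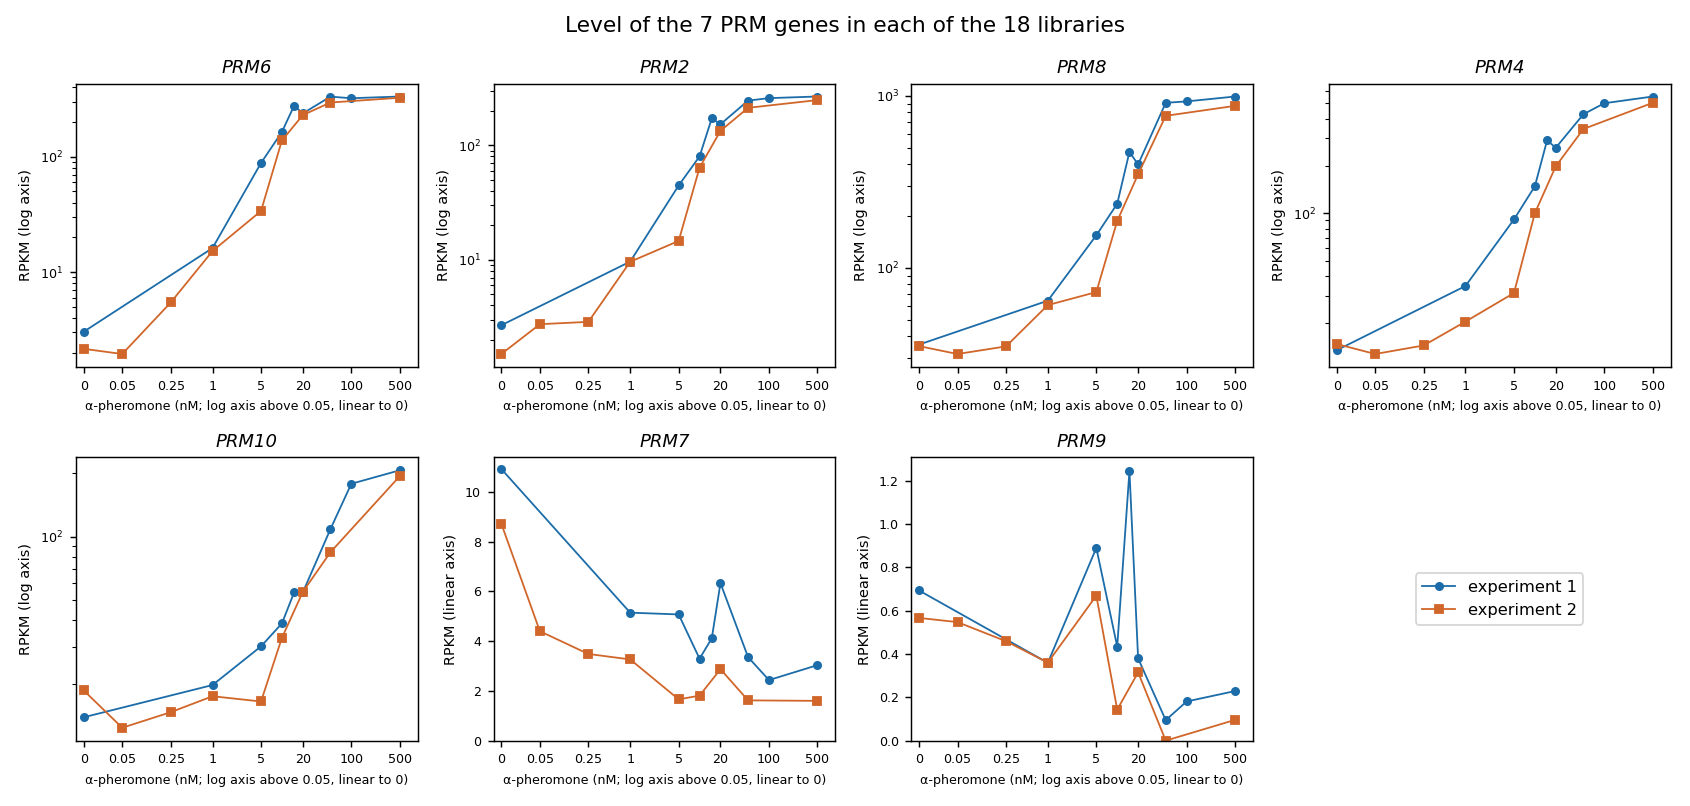
Level in RPKM (vertical axis, logarithmic for the 5 rising genes and linear for PRM7 and PRM9) against the dose of α-pheromone in nM (logarithmic above 0.05 nM) for each of the 7 genes. Each point is 1 library, blue circles are experiment 1 and orange squares experiment 2, and the 15 nM library of experiment 1 lies above the 20 nM library of that experiment for PRM6, PRM2, PRM8 and PRM4.

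Each shared dose was compared with 0 nM by limma on log2(RPKM + 1) over 5995 genes with a mean of at least 1 RPKM, with the experiment as a block, and calls required at least 2-fold together with a Benjamini-Hochberg adjusted p under 0.05. The fold changes below are on this scale, which understates the change of low genes. Of the 7 members, 6 passed this filter and were tested, and *PRM9* did not pass it. At 1 nM, 2 members were called higher, where 0.267% of all genes tested were called higher, a count of 16 genes that ranged from 0 to 34 with 1 library left out. At 5 nM it was 4 members against 0.601% of all genes, at 10 nM 5 members against 1.55%, at 20 nM 5 against 1.77%, at 50 nM 5 against 2.2% and at 500 nM 5 against 5.42%. No member was called lower at 1 nM, where 0.0334% of genes were, that is 2 genes, or 0 to 17 with 1 library left out. *PRM7* was the only member called lower at 5, 10, 20, 50 and 500 nM, where 0.183%, 1.1%, 2.8%, 5.72% and 7.11% of all genes were called lower. The 11 genes called lower at 5 nM were 4 to 15 with 1 library left out. The median log2 fold change of the 6 tested members grew along the doses and was 0.84 at 1 nM, 1.70 at 5 nM, 2.78 at 10 nM, 3.64 at 20 nM, 4.59 at 50 nM and 4.90 at 500 nM, while that of all genes tested lay between -0.13 at 50 nM and 0.00426 at 1 nM.

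**Figure D2:**
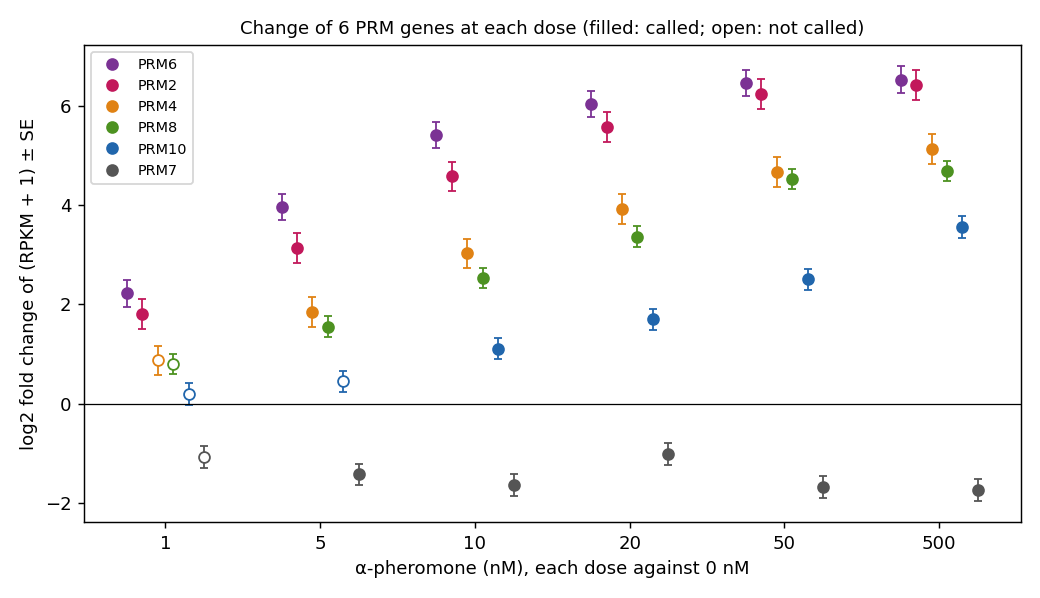
Log2 fold change of (RPKM + 1) at each shared dose in nM against 0 nM, with its standard error, for the 6 members tested. Filled points were called at an adjusted p under 0.05 and at least 2-fold, open points were not. At 1 nM PRM6 and PRM2 are filled, at 10 nM all 5 rising genes and PRM7, below the zero line, are.

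The potassium importer gene *PRM6* (YML047C, chrXIII:180017-181075, minus strand, a single exon) responded at the lowest doses. It had 3.04 RPKM at 0 nM in experiment 1, then 16.1 at 1 nM, 88.2 at 5 nM, 164 at 10 nM, 277 at 15 nM, 237 at 20 nM, 331 at 50 nM, 321 at 100 nM and 332 at 500 nM. In experiment 2 it had 2.16 RPKM at 0 nM, 1.95 at 0.05 nM, 5.45 at 0.25 nM, 15.2 at 1 nM, 33.8 at 5 nM, 138 at 10 nM, 229 at 20 nM, 295 at 50 nM and 324 at 500 nM. Both libraries at 1 nM stood above both mock-treated libraries, and the single library at 0.25 nM was already more than 2-fold above the mock of its experiment on the RPKM + 1 scale. *PRM6* was called from 1 nM, at a log2 fold change of 2.22 ± 0.27 (SE; 4.67-fold; limma, adjusted p = 0.0118). At 500 nM its log2 fold change was 6.53 ± 0.27 (92.1-fold; limma, adjusted p = 1.13e-07), the largest of the members tested.

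Between neighbouring shared doses, *PRM6* rose further in 2 steps, by 1.74 ± 0.27 on the log2 scale between 1 and 5 nM (limma, adjusted p = 0.0190) and by 1.44 ± 0.27 between 5 and 10 nM (adjusted p = 0.0318). Its level at 500 nM was 1.05-fold that at 50 nM (log2 0.07, 95% CI -0.52 to 0.67), and no step above 10 nM was called in this fit. When either 5 nM library was left out, the rises between 10 and 20 nM (log2 0.63) and between 20 and 50 nM (log2 0.42) were called. The rise between 1 and 5 nM was lost without either 1 nM library (adjusted p from 0.121 to 0.227), and that between 5 and 10 nM in 6 of the 18 fits that left out 1 library each (adjusted p from 0.0532 to 0.322). Both were lost with no filter on low values (adjusted p = 0.0590 and 0.0706) and with no block for the experiment (adjusted p = 0.104 and 0.145). Steps were called at an adjusted p under 0.05 with no fold threshold, and 0.1% of all genes had a called rise between 1 and 5 nM, 0.867% between 5 and 10 nM, 0.434% between 10 and 20 nM, 2.39% between 20 and 50 nM and 19.5% between 50 and 500 nM. The call at 1 nM was lost when either 1 nM library or the 0 nM library of experiment 2 was left out, with adjusted p-values from 0.0795 to 0.177 and log2 fold changes from 2.08 to 2.37, and without the experiment as a block *PRM6* was first called at 5 nM.

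*PRM2* (YIL037C, chrIX:283029-284999, minus strand, a single exon), a membrane protein gene regulated by Ste12, followed *PRM6* closely from a similar basal level. In experiment 1 it had 2.68 RPKM at 0 nM, 9.65 at 1 nM, 44.6 at 5 nM, 80.0 at 10 nM, 172 at 15 nM, 153 at 20 nM, 246 at 50 nM, 258 at 100 nM and 267 at 500 nM. In experiment 2 it had 1.50 RPKM at 0 nM, 2.74 at 0.05 nM, 2.87 at 0.25 nM, 9.61 at 1 nM, 14.6 at 5 nM, 63.8 at 10 nM, 134 at 20 nM, 212 at 50 nM and 248 at 500 nM. The 1 nM libraries lay above all 4 libraries at 0.25 nM and under, and the 2 experiments differed most at 5 nM. The log2 fold change was 1.81 ± 0.30 at 1 nM (SE; 3.50-fold; limma, adjusted p = 0.0401) and 6.41 ± 0.30 at 500 nM (85.1-fold; adjusted p = 1.68e-07).

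The call of *PRM2* at 1 nM was close to the threshold. It was lost in 11 of the 18 fits that left out 1 library each, namely without either 1, 10, 20, 50 or 500 nM library or without the 0 nM library of experiment 2 (adjusted p from 0.0505 to 0.279) and with no block for the experiment, and *PRM2* was then called from 5 nM. Its log2 fold change in these 11 fits was between 1.57 and 2.05. The single called step was that between 5 and 10 nM (log2 1.44 ± 0.30; limma, adjusted p = 0.0467). This call was lost in 13 of the 18 fits that left out 1 library each (adjusted p from 0.0610 to 0.392), with a pseudocount of 0.1 or 0.5 (adjusted p = 0.0574 and 0.0507), with no filter on low values (adjusted p = 0.0871) and with no block for the experiment (adjusted p = 0.211). With limma-voom on recovered reads, the rises between 10 and 20 nM (log2 1.00, adjusted p = 0.00913) and between 20 and 50 nM (0.68, adjusted p = 0.0331) were called. They were also called when either 5 nM library was left out (log2 0.99 and 0.67). The level of *PRM2* at 500 nM was 1.13-fold that at 50 nM (95% CI of the log2 fold change -0.50 to 0.84).

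*PRM8* (YGL053W, chrVII:402589-403302, plus strand, a single exon), of the DUP240 family, had the highest basal level of the 7 genes and the highest level reached, RPKM being scaled to gene length. In experiment 1 it had 35.8 RPKM at 0 nM, 64.4 at 1 nM, 155 at 5 nM, 236 at 10 nM, 472 at 15 nM, 399 at 20 nM, 911 at 50 nM, 928 at 100 nM and 991 at 500 nM. In experiment 2 it had 35.0 RPKM at 0 nM, 31.5 at 0.05 nM, 34.9 at 0.25 nM, 60.7 at 1 nM, 72.2 at 5 nM, 187 at 10 nM, 350 at 20 nM, 765 at 50 nM and 875 at 500 nM. Both 1 nM libraries lay above the 4 at 0.25 nM and under, at less than 2-fold the mock of their own experiment. *PRM8* was first called at 5 nM (log2 1.55 ± 0.20, SE; 2.93-fold; limma, adjusted p = 0.00304), and its log2 fold change at 500 nM was 4.68 ± 0.20 (25.6-fold; adjusted p = 1.23e-07). It was the only member with a called rise between 20 and 50 nM in this fit (log2 1.16 ± 0.20; adjusted p = 0.0121). That call was lost without the 20 nM library of experiment 1 or either 50 nM library (log2 from 1.09 to 1.19). With limma-voom on recovered reads, *PRM2*, *PRM4* and *PRM10* were also called at this step. When either 5 nM library was left out, *PRM2*, *PRM4*, *PRM6* and *PRM10* were called at it too (log2 0.67, 0.74, 0.42 and 0.80). The rise of *PRM8* between 5 and 10 nM was also called (log2 0.98 ± 0.20; adjusted p = 0.0467), and was lost in 12 of the 18 fits that left out 1 library each. Levels at 500 nM were 1.11-fold those at 50 nM (95% CI of the log2 fold change -0.30 to 0.61).

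*PRM4* (YPL156C, chrXVI:255913-256767, minus strand, a single exon), which encodes a protein with a single predicted transmembrane segment, rose over a wide range of doses. In experiment 1 it had 13.5 RPKM at 0 nM, 34.5 at 1 nM, 91.3 at 5 nM, 149 at 10 nM, 291 at 15 nM, 261 at 20 nM, 426 at 50 nM, 500.0 at 100 nM and 552 at 500 nM. In experiment 2 it had 14.8 RPKM at 0 nM, 12.8 at 0.05 nM, 14.5 at 0.25 nM, 20.5 at 1 nM, 31.1 at 5 nM, 100.2 at 10 nM, 199 at 20 nM, 343 at 50 nM and 503 at 500 nM. At 1 nM its level was more than 2-fold over the mock in experiment 1 and less than 2-fold in experiment 2. *PRM4* was first called at 5 nM (log2 1.85 ± 0.30, SE; 3.61-fold; limma, adjusted p = 0.00881), a call lost without the 0 nM library of experiment 1 (adjusted p = 0.0531) or with no block for the experiment, when it was first called at 10 nM. Its log2 fold change at 500 nM was 5.13 ± 0.30 (34.9-fold; adjusted p = 6.32e-07). No step between neighbouring doses was called, and the step from 50 to 500 nM was 1.38-fold (95% CI of the log2 fold change -0.20 to 1.13).

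*PRM10* (YJL108C, chrX:217705-218856, minus strand, a single exon), a predicted membrane protein gene, was the last to rise. In experiment 1 it had 13.9 RPKM at 0 nM, 19.7 at 1 nM, 30.1 at 5 nM, 38.7 at 10 nM, 54.3 at 15 nM, 54.3 at 20 nM, 109 at 50 nM, 178 at 100 nM and 207 at 500 nM. In experiment 2 it had 18.6 RPKM at 0 nM, 12.4 at 0.05 nM, 14.7 at 0.25 nM, 17.5 at 1 nM, 16.5 at 5 nM, 33.1 at 10 nM, 54.7 at 20 nM, 84.3 at 50 nM and 194 at 500 nM. Up to 5 nM the libraries of experiment 2 did not exceed their own mock. *PRM10* was first called at 10 nM (log2 1.11 ± 0.21, SE; 2.15-fold; limma, adjusted p = 0.00804), and at 20 nM with a pseudocount of 5 or without the 0 nM library of experiment 1 or either 10 nM library. At 500 nM the log2 fold change was 3.56 ± 0.21 (11.8-fold; adjusted p = 7.97e-07). It was the only member with a called rise between 50 and 500 nM (log2 1.06 ± 0.21; 2.08-fold; adjusted p = 0.00462), a step at which 19.5% of all genes were called higher.

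The dose of half-maximal level (EC50) put the same 5 genes in order. A Hill curve was fitted to each gene's RPKM as a share of its highest RPKM in the same experiment, with a plateau of 1. The EC50 was 10.6 nM for *PRM6* (9.30 nM in experiment 1 and 12.7 nM in experiment 2), 15.9 nM for *PRM2* (14.3 and 18.7 nM), 21.9 nM for *PRM8* (20.8 and 23.8 nM), 23.1 nM for *PRM4* (19.6 and 29.3 nM) and 50.6 nM for *PRM10* (46.7 and 62.5 nM). *PRM6* was lowest, *PRM2* the next and *PRM10* highest in each experiment. The order of *PRM8* and *PRM4* changed between the experiments, and their values did not differ beyond that spread. Fitted on log2(RPKM + 1), the EC50 was lower for each gene, at 2.21 nM for *PRM6*, 4.02 nM for *PRM2*, 7.08 nM for *PRM4*, 8.39 nM for *PRM8* and 19.8 nM for *PRM10*, with *PRM4* below *PRM8*. On the RPKM scale, experiment 2 gave the higher EC50 for all 5 genes. Leaving out 1 library at a time moved the EC50 of *PRM6* between 10.1 and 11.6 nM, of *PRM2* between 14.7 and 17.6 nM, of *PRM8* between 20.5 and 23.6 nM, of *PRM4* between 18.1 and 25.4 nM and of *PRM10* between 29.8 and 56.4 nM. The lowest value of *PRM10* came without the 500 nM library of experiment 2, and with both 500 nM libraries left out its EC50 was 26.3 nM. The EC50 is thus a description over the doses used, and for *PRM10* it rests on the 500 nM libraries. The fitted Hill coefficients were between 1.36 for *PRM4* and 1.99 for *PRM8*.

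**Figure D3:**
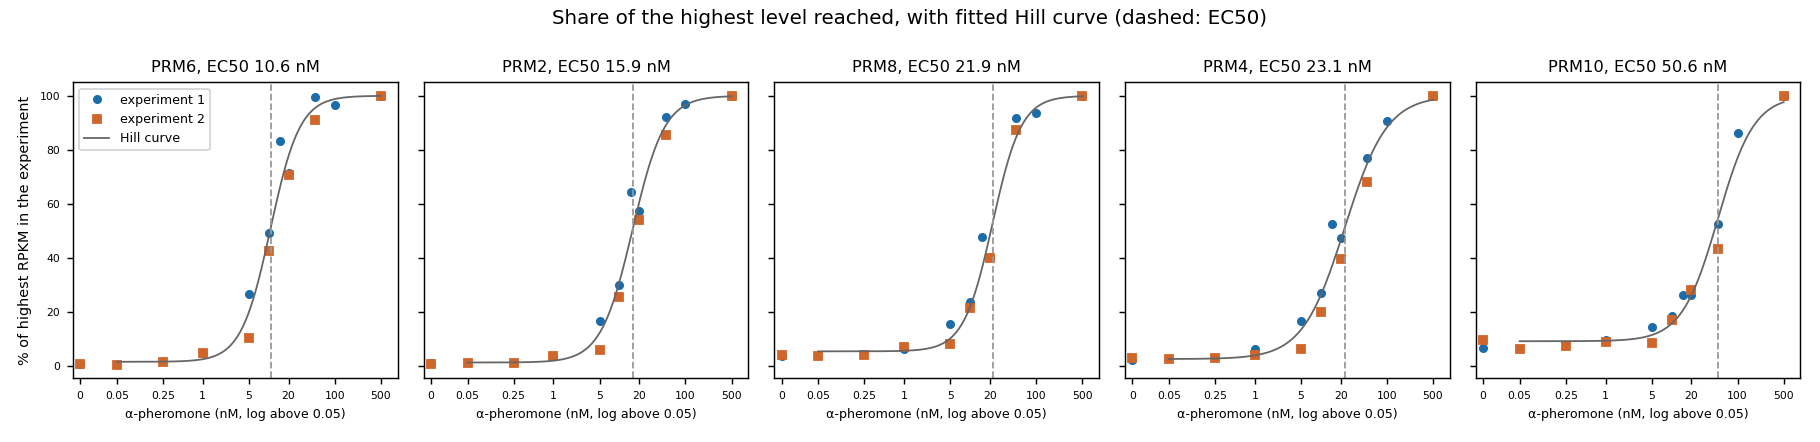
Level as a percentage of the highest RPKM of the gene in the same experiment (vertical axis) against the dose of α-pheromone in nM (logarithmic above 0.05 nM) for the 5 genes that rose, 1 point per library. The grey curve is the fitted Hill curve and the dashed line its EC50, which lies at 10.6 nM for PRM6 on the left and at 50.6 nM for PRM10 on the right.

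Pooling the 7 libraries at 20 nM and above against the 4 at 0.25 nM and under gave the same 5 genes as higher, where 2.29% of all genes were called higher. The pooled libraries are different doses of the 2 experiments. As the study's methods describe aliquots of a culture for the doses, they are not independent replicates. *PRM6* averaged 295 ± 44.5 RPKM at the high doses and 3.15 ± 1.60 RPKM at the low doses (SD, n = 7 and 4; log2 fold change 6.19, limma, adjusted p = 3.50e-08). *PRM2* averaged 217 ± 53.3 and 2.45 ± 0.635 RPKM in the same groups (5.89, adjusted p = 3.63e-08). *PRM8* averaged 745 ± 263 and 34.3 ± 1.90 RPKM (4.23, adjusted p = 2.44e-06), and *PRM4* 398 ± 134 and 13.9 ± 0.924 RPKM (4.59, adjusted p = 4.95e-07). *PRM10* averaged 126 ± 66.0 and 14.9 ± 2.67 RPKM (2.76, adjusted p = 5.19e-04). The 2 groups did not overlap for any of these 5 genes. Of all genes tested, 6.99% were higher and 16.4% lower at 20 nM and above with no overlap between the groups. *PRM7* was called lower (log2 fold change -1.17, adjusted p = 0.00750), where 4.4% of all genes were, and its groups overlapped.

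At 5 nM, *PRM6* had 33.8 RPKM in experiment 2 and 88.2 RPKM in experiment 1, and *PRM2* had 14.6 RPKM in experiment 2 and 44.6 RPKM in experiment 1. Over 5 and 10 nM together, the level in experiment 2 minus that in experiment 1 was set against the same difference at the other shared doses. In log2 it was -0.72 for *PRM2*, -0.76 for *PRM4*, -0.66 for *PRM6*, -0.56 for *PRM8*, -0.48 for *PRM10* and -0.28 for *PRM7*. This compares levels between doses and is not a difference of changes from the mock. None of these differences was called by limma (adjusted p = 1.00 for each of the 6 genes). Of the 5995 genes, 0 were called at an adjusted p under 0.05 (0% lower) and 163 had an unadjusted p under 0.05. With 5 nM alone as the middle dose, the difference was called for *PRM6* (-1.20, adjusted p = 0.0133), *PRM8* (-0.91, adjusted p = 0.0186) and *PRM2* (-1.31, adjusted p = 0.0277). Each experiment had 1 library at 5 nM, so a difference between the experiments and a single deviating library cannot be told apart.

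*PRM7* (YDL039C, chrIV:381985-384081, minus strand, a single exon), a gene of less defined function that in another strain background forms a longer reading frame with its neighbour *BSC1*, was low and went the other way. In experiment 1 it had 10.9 RPKM at 0 nM, 5.15 at 1 nM, 5.08 at 5 nM, 3.30 at 10 nM, 4.12 at 15 nM, 6.33 at 20 nM, 3.36 at 50 nM, 2.44 at 100 nM and 3.04 at 500 nM. In experiment 2 it had 8.73 RPKM at 0 nM, 4.40 at 0.05 nM, 3.48 at 0.25 nM, 3.27 at 1 nM, 1.66 at 5 nM, 1.81 at 10 nM, 2.88 at 20 nM, 1.62 at 50 nM and 1.60 at 500 nM. Behind these values were 31 to 156 reads in the libraries with pheromone and 221 and 216 reads in the 2 mock-treated ones. Both mock-treated libraries stood above all 16 libraries that received pheromone, including 0.05 and 0.25 nM. *PRM7* was less than 2-fold below its mock at 0.05 nM and more than 2-fold below it at 0.25 nM. Of the other members, only *PRM6* at 0.25 nM stood more than 2-fold from its mock at these 2 doses.

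The log2 fold change of *PRM7* was -1.42 ± 0.22 at 5 nM (SE; limma, adjusted p = 0.00645), -1.01 ± 0.22 at 20 nM (adjusted p = 0.00725) and -1.73 ± 0.22 at 500 nM (adjusted p = 8.01e-05). The comparison of high with low doses rests on the mock-treated libraries. Its log2 fold change, -1.17, was -1.05 without the 0 nM library of experiment 1 (limma, adjusted p = 0.0612). It was -0.99 without that of experiment 2 (adjusted p = 0.0205). Set against 0.05 and 0.25 nM alone, an alternative added after the values had been seen, 20 nM and above gave -0.73 (adjusted p = 0.20). These low doses were given in experiment 2 only, so with the block this fold change rests on the libraries of experiment 2. At 5 nM the call was lost without the 0 nM or the 5 nM library of experiment 2 (adjusted p from 0.0557 to 0.0657), and at 20 nM without the 0 nM or the 20 nM library of experiment 2 (adjusted p from 0.0667 to 0.0735). Without the block for the experiment, the calls at 5, 10 and 20 nM were lost (adjusted p = 0.311, 0.0725 and 0.202). With a pseudocount of 5, the log2 fold change was under 2-fold at 5 nM (-0.85), 10 nM (-0.98), 20 nM (-0.65) and 50 nM (-0.99), and at 20 nM it was -0.92 both with libraries centred on their median and with quantile normalization. No step of *PRM7* between neighbouring doses from 1 nM upwards was called.

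The genes whose pattern was most like that of *PRM7*, by Pearson's r of log2(RPKM + 1) over the 18 libraries after subtraction of the experiment mean, were the uncharacterised gene *YNL234W* (r = 0.931), its neighbour *BSC1* (r = 0.930) and *MIG2* (r = 0.930), a repressor gene of the glucose response. These are the 3 highest of 5989 genes compared, the points share their libraries, and no test was made. *BSC1* lies 519 bases away on the same strand and had 0.359 to 0.810 times the level of *PRM7*. *BSC1* had 1.25 and 0.610 RPKM at 500 nM and 7.25 and 4.38 RPKM at 0 nM in experiments 1 and 2, and its log2 fold change was -1.81 ± 0.24 (limma, adjusted p = 1.31e-04). *MIG2* had 20.3 to 42.1 RPKM in the 16 libraries with pheromone and 60.9 and 66.8 RPKM in the mock-treated ones. The levels of *PRM7* and *BSC1* are uncertain by their sequence, since 2.15% and 14.4% of their 50-base windows occur exactly elsewhere in the genome, 11.1% and 22.2% with up to 2 mismatches, and the handling of such reads is not given in the sources used here.

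**Figure D4:**
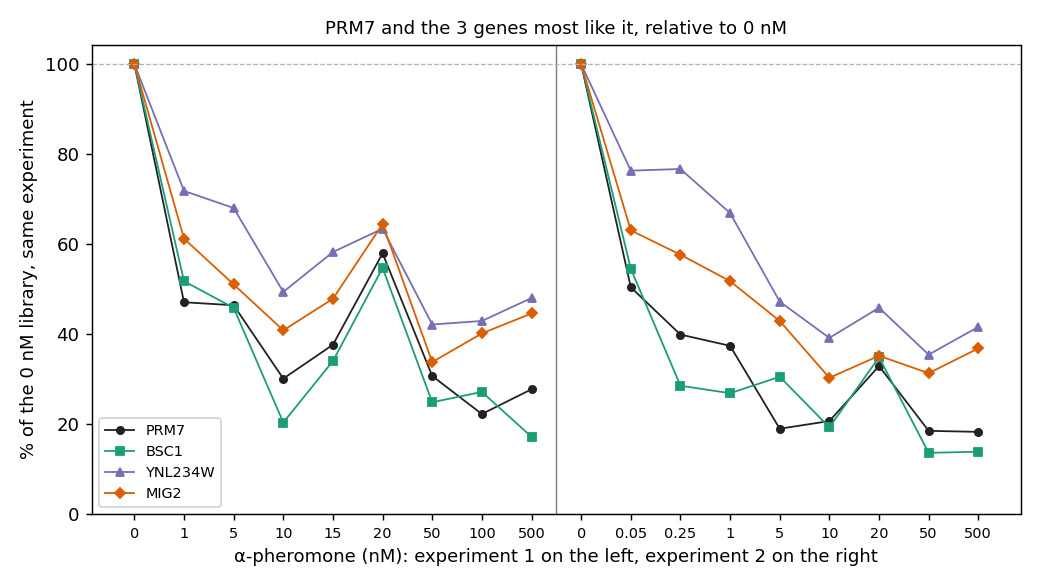
Level of PRM7 and of the 3 genes most like it as a percentage of the mock-treated library of the same experiment (vertical axis), for the 9 libraries of experiment 1 on the left and the 9 of experiment 2 on the right, in order of dose in nM. All 4 genes are below the dashed line of the mock in each of the 16 libraries with pheromone, at 0.05 nM too, where PRM7 had 4.40 RPKM.

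*PRM9* (YAR031W, chrI:186836-187732, plus strand, a single exon), the other DUP240 member, had between 0 and 1.25 RPKM, with a mean of 0.426 RPKM over the 18 libraries, from 0 to 11 reads per library. It had 0.229 and 0.0960 RPKM at 500 nM, 1 read each, and 0.694 and 0.567 RPKM at 0 nM, 6 reads each, in experiments 1 and 2. The highest level was in the single library at 15 nM, with 11 reads, and the library at 50 nM of experiment 2 had 0 reads, which allows a level of up to 0.247 RPKM (3 reads; counting error only). The 7 libraries at 20 nM and above had 0 to 4 reads (mean 0.185 RPKM), against 4 to 6 reads in the 4 at 0.25 nM and under (mean 0.567 RPKM), so that no rise like that of *PRM8* was seen. In RPKM the 2 groups did not overlap, at 0 to 0.380 and 0.459 to 0.694. Of all genes tested, 16.4% were lower at the high doses with no overlap. In a fit without the filter on low values, the log2 fold change of *PRM9* at 500 nM was -0.49 ± 0.13 (limma, adjusted p = 0.0112). For the 2 pooled groups it was -0.45 ± 0.10 (adjusted p = 0.00724). Both changes are less than 2-fold, but on log2(RPKM + 1) a fall from under 1 RPKM cannot reach 2-fold. In RPKM, the mean was 0.1626 at 500 nM against 0.6305 at 0 nM, and 0.185 against 0.567 in the pooled groups, from a few reads each.

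*PRM8* and *PRM9* are 86.5% identical over 705 aligned bases of their coding sequences, and 36.5% of the 50-base windows of *PRM8* and 28.7% of those of *PRM9* occur exactly elsewhere in the genome, 41.5% and 31.2% with up to 2 mismatches. How reads from these stretches were counted is not given, so the levels of both genes are uncertain to that extent. At 50 nM, *PRM9* had 1 and 0 reads in experiments 1 and 2, where *PRM8* had 7658 and 7392. Almost no reads were thus counted for *PRM9* at that dose, whatever their origin. *PRM2*, *PRM4*, *PRM6* and *PRM10* had no such window, also with 2 mismatches allowed.

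The other DUP240 genes, a list of 8, moved little. At 500 nM 1 was called higher, 1 lower and 6 neither, with a median log2 fold change of -0.24 against -0.11 over all genes. The one that rose was *MST27*, whose protein is found in vesicles of the secretory pathway and which lies 384 bases downstream of *PRM8* on the same strand. *MST27* averaged 17.2 RPKM at 20 nM and above and 2.48 RPKM at 0.25 nM and under, and its log2 fold change at 500 nM was 2.38 ± 0.16 (limma, adjusted p = 1.82e-06). Its level was 1.94% to 8.93% of that of *PRM8*, lowest at high doses. *MST28*, beside *PRM9*, had a log2 fold change of -0.41 ± 0.31 (adjusted p = 0.279). However, *MST27* and *MST28* are 97.9% identical, and 63.9% of the windows of each occur exactly elsewhere, 88.9% with up to 2 mismatches. The gene that fell was *YAR029W*, which lies 290 bases from *PRM9* (log2 -1.99 ± 0.39, adjusted p = 0.00149), at 0 to 7.56 RPKM.

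Next to *PRM10*, *YJL107C* rose with it. The reading frames of the 2 genes overlap by 4 bases on the same strand, and the start codon of *PRM10* lies within the end of *YJL107C*. The overlap is shown because it places both genes in one stretch of sequence, with the 4 shared bases in capitals.
*PRM10* and *YJL107C*, chrX:218840-218869, minus strand: tcttccaggttgtATGAttgtttcatttgg

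*YJL107C*, which in related fungi is merged with *PRM10* into a single gene, had 0.915 to 1.13 times the level of *PRM10* in every library, and at 500 nM its log2 fold change was 3.47 ± 0.25 (limma, adjusted p = 2.65e-06), against 3.56 for *PRM10*. It was the gene most like *PRM10* of all compared (r = 0.998), followed by *PRM5* (r = 0.994), a target of the cell wall integrity pathway, and *PAM1* (r = 0.991). The window of 300 bases before the start of *PRM10* therefore lies within the coding sequence of *YJL107C*. That before *YJL107C* itself held neither the full nor the short core of the response element, and its window of 600 bases held 1 full core.

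**Figure D5:**
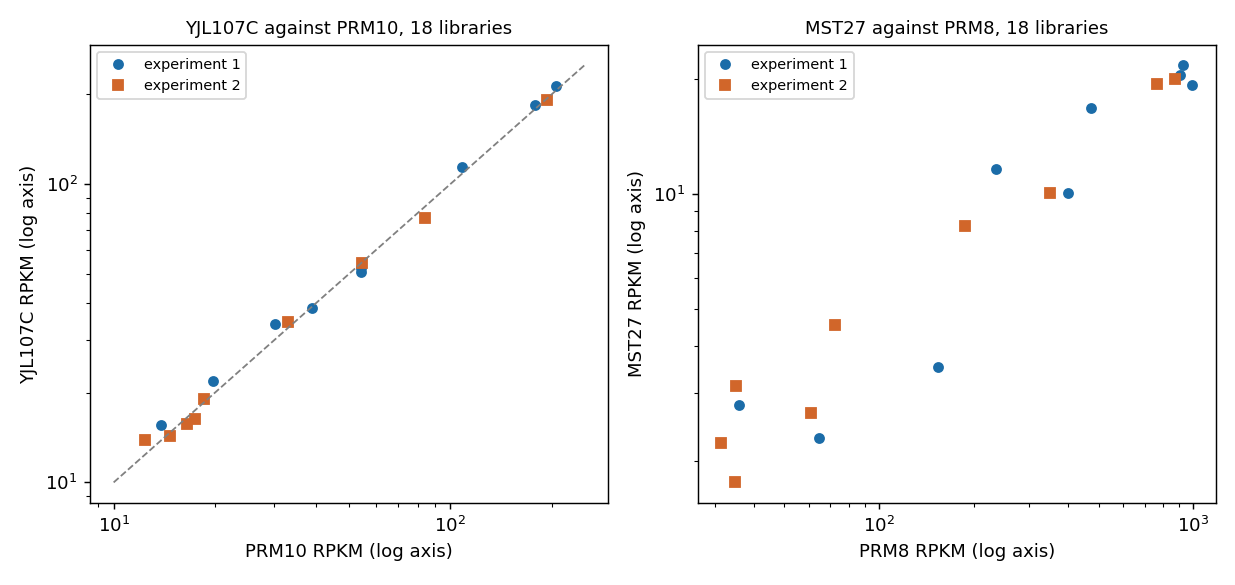
Level of an adjacent gene against that of its PRM gene, in RPKM on logarithmic axes, with 1 point per library (blue circles experiment 1, orange squares experiment 2). On the left, YJL107C follows PRM10 along the dashed line of equal levels, at 0.915 to 1.13 times its level; on the right, MST27 stays at 1.94% to 8.93% of PRM8.

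The other nearest neighbours in the R64 annotation did not rise by 2-fold. *PRP39*, a splicing factor gene whose start faces that of *PRM6* across 398 bases, averaged 81.8 RPKM at 20 nM and above and 43.3 RPKM at 0.25 nM and under (log2 fold change 0.89, limma, adjusted p = 1.85e-06). *TGS1*, an RNA cap methyltransferase gene whose end lies 151 bases from the end of *PRM4* on the other strand, averaged 13.9 RPKM at the high and 34.1 RPKM at the low doses (log2 -1.31, adjusted p = 0.00101). *KIP2*, a kinesin gene upstream of *PRM4*, averaged 7.54 and 19.1 RPKM (log2 -1.21, adjusted p = 2.27e-06). *NOT3*, *CST6*, *GSF2*, *NAT1* and *UTP10*, beside *PRM2*, *PRM6*, *PRM7* and *PRM10*, were not called in either direction. A tRNA gene beside *PRM8* was not analysed here.

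The 5 rising genes also differed in which genes they most resembled. *PRM2* was closest to the cell fusion gene *FUS2* (r = 0.998), the uncharacterised gene *YDR124W* and the membrane fusion gene *PRM1*. *PRM6* was closest to *FIG1* (r = 0.996), a membrane protein gene that takes part in calcium influx during mating, then to the agglutinin gene *AGA1* and the pathway inhibitor gene *SST2*. *PRM4* was closest to the cyclin gene *PCL2* and the nuclear fusion gene *KAR5* (r = 0.997 for both), and *PRM8* to *PMU1* (r = 0.998), *YGL052W*, which is not in the R64 annotation, and *ASG7*, which *PRM4* also resembled. By its systematic name, *YGL052W* comes between *PRM8* (YGL053W) and *MST27* (YGL051W), but its position was not examined. It averaged 158 RPKM at 20 nM and above and 11.3 RPKM at 0.25 nM and under. Among the members themselves, r was highest for *PRM4* and *PRM8* (0.995) and lowest, among those that rose, for *PRM6* and *PRM10* (0.843). These values are over 18 libraries that share the same doses.

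Of the 22 other mating genes, 5 were called higher at 1 nM, 13 at 5 nM, 19 at 10 nM, 20 at 20 nM, 21 at 50 nM and 21 at 500 nM, and none was called lower. Their median log2 fold change at 500 nM was 2.89. The largest was that of *PRM3*, a nuclear fusion gene (8.11 ± 0.40), and the smallest that of the a-factor exporter gene *STE6* (0.29 ± 0.08), which was not called. Of the other PRM genes in this list, *PRM1* was called from 1 nM, as *PRM2* and *PRM6* were, and reached a log2 fold change of 5.48 at 500 nM, while *PRM5* reached 2.89. Of 8 potassium transport genes, none was called from 1 to 50 nM, and *KHA1*, an antiporter gene, was called higher at 500 nM (1.01 ± 0.06, adjusted p = 1.13e-06). *KCH1*, the paralogue of *PRM6*, with 67.7% identity over the aligned bases, had 28.1 to 46.2 RPKM in all libraries and a log2 fold change of 0.19 ± 0.09 at 500 nM (limma, adjusted p = 0.112).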

How the data were processed

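RNA was sequenced from 18 samples as directional libraries with 50-base reads after removal of ribosomal RNA. Per the study's methods, the doses were given to aliquots of a growing culture in separate flasks, which are not independent cultures. The authors mapped the reads and deposited RPKM values per gene, one table per experiment. The submitters' processing notes name Bowtie 0.12.2 and sacCer3, while the methods name Bowtie 2 and an Ensembl genome, and how reads that map to several places were treated is not given in the sources used here. Doses and experiments were taken from the labels, where the unit of 0.05 is written nm and was taken as nM. RPKM multiplied by gene length less 1 base gave whole reads, within 0.05, for 99.4% to 99.8% of values up to 100 reads, and with them the library totals. Limits of detection cover counting error only.

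Genes averaging at least 1 RPKM were tested with limma 3.58.1 in R 4.3.3 on log2(RPKM + 1), with dose as a factor, the experiment as a block and Benjamini-Hochberg adjustment over all genes tested. With at most 2 libraries per dose, the spread was shared over all libraries. The labels give each experiment as a biological replicate with its own mock, and deviations of same-numbered libraries from their dose means correlated at 0.354 on average (0.178 to 0.466 over 21 pairs of doses). Hill curves were fitted with scipy 1.17.1 in Python 3.11.15, the EC50 held within 0.1 to 1000 nM and the Hill coefficient within 0.5 to 6. For 500 nM against 0 nM, simulated reads of 5553 genes gave calls for 61 of 61 genes raised by 2 and 70 of 70 raised by 3 on the log2 scale, for 68 of 69 lowered by 2, and for 3 other genes. The simulated experiment shift was the same at all doses, and no smaller changes were simulated. The simulation therefore cannot speak to calls of smaller changes or to single deviating libraries. The genes named are the 7 members, the 3 genes most correlated with each, their nearest annotated neighbours and 3 comparison lists, of which the largest and smallest changes are named. Members and lists were chosen with earlier results of these data known. Other pseudocounts, filters, scalings, limma-voom on recovered reads and leaving out each library were tried. Positions and sequences are from RefSeq assembly R64, to which 6048 of the 7126 gene names matched.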

Additional observations from a re-analysis of the deposited data

Results flagged for a closer look

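For each of the 7 genes, the libraries at 20 nM and above and those at 0.25 nM and under were searched for a library far from the others by Dixon's test, 14 groups in all, of which chance flags about 1 in 20. Of these, 2 stood out. *PRM2* had 1.50 RPKM in the 0 nM library of experiment 2, below the other 3 libraries at 0.25 nM and under, whose values were 2.68 to 2.87 RPKM. *PRM7* had 6.33 RPKM in the 20 nM library of experiment 1, above the other 6 libraries at 20 nM and above, whose highest value was 3.36 RPKM. These groups mix doses and experiments.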

How the results depend on the processing

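Under every alternative run, the rises of *PRM2*, *PRM6* and *PRM8* from 5 nM and of *PRM4* from 10 nM kept their direction and call. So did the rises of *PRM10* from 20 nM, of all 5 in the pooled comparison and of *PRM10* from 50 to 500 nM. The other calls at lower doses and the other steps did not. At 1 nM, 1 member was called higher with a pseudocount of 5 or with no filter on low values, 0 with limma-voom on recovered reads, which called 1 lower, and 0 to 2 with 1 library left out (0 to 1 lower). *PRM2* was then first called at 5 nM with a pseudocount of 5, with no filter and with limma-voom (1 to 5 nM with 1 library left out), *PRM6* at 5 nM with limma-voom (1 to 5 nM), *PRM4* at 5 to 10 nM with 1 library left out, and *PRM10* at 20 nM with a pseudocount of 5 (10 to 20 nM). No member was called lower (0) at 5, 10, 20 or 50 nM with a pseudocount of 5, at any dose with a filter at a mean RPKM of 5, which *PRM7* does not pass, or at 20 nM with libraries centred on their median or quantile normalized. With 1 library left out it was 0 to 1 at 5 and 20 nM. In the pooled comparison, 0 were lower with a pseudocount of 5, a filter of 5, quantile normalization or only 0.05 and 0.25 nM as low doses, and 0 to 1 with 1 library left out.

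Steps called between 1 and 5 nM were 0 with no filter and 0 to 4 with 1 library left out. Between 5 and 10 nM they were 1 with a pseudocount of 0.1, 0 with no filter, 5 with limma-voom and 0 to 5 with 1 library left out. Between 10 and 20 nM they were 4 with limma-voom and 0 to 4, and between 20 and 50 nM 2 with a pseudocount of 5 or median centring, 4 with limma-voom and 0 to 5. The step of *PRM6* from 50 to 500 nM turned to -0.0186 (log2) with median centring and ranged from -0.10 to 0.24 with 1 library left out, that of *PRM2* from -0.0128 to 0.35, the step of *PRM7* from 5 to 10 nM from -0.50 to 0.0742, that of *PRM10* from 1 to 5 nM from -0.13 to 0.63 and its change at 1 nM from -0.14 to 0.53, and none of these was called.

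Without the experiment as a block, that is with no pairing of the libraries, 0 members were called higher at 1 nM, 0 lower at 5, 10 and 20 nM and in the pooled comparison, and 0 steps were called between 1 and 5, 5 and 10 or 20 and 50 nM. *PRM2* and *PRM6* were first called at 5 nM and *PRM4* at 10 nM. It called 1 gene higher at 1 nM in place of 16, 0 lower in place of 2, and at 5 nM 20 higher and 7 lower in place of 36 and 11.

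On the log2 scale the EC50 was 2.21 nM for *PRM6*, 4.02 nM for *PRM2*, 7.08 nM for *PRM4*, 8.39 nM for *PRM8* and 19.8 nM for *PRM10*. With 500 nM left out it was 19.6 nM for *PRM8* and 26.3 nM for *PRM10*, which was at 62.5 nM in experiment 2 alone and at 29.8 to 56.4 nM with 1 library left out. With 5 nM alone the experiment difference was -1.31 for *PRM2*, -0.91 for *PRM8* and -1.20 for *PRM6*. With 1 library left out it ranged from -0.94 to -0.18 for *PRM8*, from -1.22 to -0.10 for *PRM6* and from -0.57 to 0.0095 for *PRM7*.

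Over all genes, a pseudocount of 5 called 8 higher and 1 lower at 1 nM, and 4, 41, 97, 197 and 240 lower at 5, 10, 20, 50 and 500 nM and 152 in the pooled comparison, in place of 11, 66, 168, 343, 426 and 264. No filter called 5 higher and 1 lower at 1 nM, limma-voom 4 higher at 1 nM and 18 lower at 5 nM, and a filter of 5 called 6 lower at 5 nM. Quantile normalization called 176 higher and 224 lower at 50 nM, in place of 132 and 343, and 165 and 185 in the pooled comparison, in place of 137 and 264. Levels under about 1 RPKM rest on a few reads, which limits what can be said of *PRM9*.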
